A study of Mus musculus with 6 samples.

Results

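The Fc gamma receptors, the gamma chain that several of them signal through and the first kinases of that signal were examined in mouse microglia that had been cultured with neutrophils. The genes were taken by name, with earlier results of these data known, so counts over them are a description. They are Fcgr1, Fcgr2b, Fcgr3 and Fcgr4 (the 4 receptors), Fcer1g (the gamma chain), and Syk and Lyn (the 2 kinases), so that 7 of the 55335 gene identifiers in the table were taken, and all 7 were among the 11395 genes tested. The microglia came from the brains of newborn C57BL/6 mice of WT genotype and were shaken off mixed glial cultures on day 14. They were cultured for 24 h with neutrophils that had been pulled by magnetic sorting out of injured spinal cord at 3 dpi (days post-injury), from mice that were either CD177 WT or CD177 KO. Microglia were then recovered as Ly6G- cells by flow sorting, and RNA-seq was read from 3 libraries per neutrophil genotype. Both groups had therefore met neutrophils from a lesion, and the labels set them apart by the Cd177 genotype of the neutrophils. The methods name different suppliers for the C57BL/6 and the Cd177-/- mice, so genotype and supplier of the neutrophil donors cannot be told apart here. No library of microglia alone was analysed here, and the labels do not say whether the libraries of a group came from separate cultures or pooled animals, so the p-values measure the spread between these libraries, which may be technical.

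Fc gamma receptors bind the constant part of IgG and let phagocytes take up antibody-coated material and respond to immune complexes. Activating receptors (Fcgr1, Fcgr3 and Fcgr4) have no signalling motif of their own in the mouse and pair with the gamma chain, whose immunoreceptor tyrosine-based activation motif (ITAM) is phosphorylated by Src family kinases such as Lyn and then docks Syk. Fcgr2b is the inhibitory receptor: it carries an immunoreceptor tyrosine-based inhibitory motif (ITIM), which Lyn also phosphorylates and which recruits the lipid phosphatase SHIP1 (Inpp5d). In microglia, as in other macrophages, the balance of the activating and the inhibitory receptors is known to set the threshold for the response to IgG.

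A pair of short pieces of coding sequence show the difference between the activating and the inhibitory arm. They were read from GENCODE M21 transcripts (GRCm38) and are given 5′ to 3′ on the coding strand, with the codons of the tyrosines in capitals. The ITAM codons of Fcer1g cover residues 65 to 79 of 86 and lie in 2 exons (chr1:171230067-171230072 and chr1:171229889-171229927, minus strand). The ITIM codons of Fcgr2b cover residues 317 to 322 of 340 (chr1:170961071-170961088, minus strand). The search pattern for the ITIM is short, and it was also met in the translations of Fcgr1, Fcgr4, Fcer1g and Lyn, where it is a match of letters only.
Fcer1g ITAM: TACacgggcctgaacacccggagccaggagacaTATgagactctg
Fcgr2b ITIM: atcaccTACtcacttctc

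Fcgr2b and Fcgr3 are near copies in the part that binds IgG, so reads from that part can be given to either gene. Their longest identical coding run was 129 bases, against 9 to 14 bases for the other pairs of receptors. It lies in 2 exons of each gene (Fcgr2b chr1:170967980-170968081 and chr1:170966674-170966700, Fcgr3 chr1:171057691-171057792 and chr1:171054167-171054193, all on the minus strand), and it is shown because the 2 genes moved in opposite directions.
Run shared by Fcgr2b and Fcgr3: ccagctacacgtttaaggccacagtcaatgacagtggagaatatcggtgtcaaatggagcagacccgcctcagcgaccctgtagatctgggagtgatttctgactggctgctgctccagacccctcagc

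Of all windows of 50 bases in the Fcgr3 transcripts, 9.58% also occurred in another gene, and all of these were in Fcgr2b. For windows of 100 bases the share was 2.54%, and for windows of 150 bases it was 0. For Fcgr2b the share was 4.38% at 50 bases (249 windows, found in 47 other genes, with 166 in Fcgr3 and the next most, 30, in Gm4117), 1.4% at 100 bases and 0 at 150 bases. Fcgr1, Fcgr4, Fcer1g and Syk shared no window of these lengths with another gene. Lyn had the highest share at 50 bases, 13.4%, with 7.9% at 100 and 5.44% at 150 bases, all in the pseudogene Gm11787, which was listed at 0 in all 6 libraries. How the authors placed reads that fit more than 1 gene is not given in the sources used here.

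Expression was read as FPKM (fragments scaled by transcript length in kilobases and by 1000000 mapped fragments), a level per length that can be compared between genes. Total FPKM was 314084.9 to 315632.4 with WT and 323588.4 to 326868.0 with KO neutrophils. Depth is not given with the table. The steps between low values put it at 15.6 to 19.2 times 1000000 fragments in a library, a rough reading, since only 25.9% to 27.0% of low values fell on whole fragments against 10% by chance. If it holds, and each gene is taken at its shortest coding transcript, the thinnest value of the 7 genes (Fcgr2b) rested on about 136 fragments. That is a counting error of about 8.58%. The coding transcripts of Fcgr2b run from 1084 to 3544 bases, so its number could be higher. Fcgr4, with 1 coding transcript of 1256 bases, rested on at least about 182. Markers of other cells averaged below 1 FPKM, except the neutrophil marker Mmp9 and the B cell marker Ighm. Ighm had 2.36 to 2.52 FPKM in the WT group and 8.44 to 10.8 FPKM in the KO group, which overlaps Fcgr2b there (7.88 to 9.0 FPKM). A listed 0 can be a gap in the quantification, since the widely expressed kinase gene Yes1 was also listed at 0 in all 6 libraries. Of 16 neutrophil markers 8 were listed at 0 in every library, Ly6g and S100a9 among them, and their summed level was 9.24 to 9.38 FPKM in the WT group and 1.76 to 2.4 FPKM in the KO group, of which Mmp9 alone made 7.08 to 7.21 FPKM and 0.77 to 1.13 FPKM. S100a8 (0.31 to 0.456 against 0 to 0.181 FPKM), Camp (0.234 to 0.384 against 0 to 0.156 FPKM), Csf3r (0.546 to 0.744 against 0.223 to 0.399 FPKM) and Cd177 were also lower in the KO group without overlap, below the filter of the test. Mmp8 and Cxcr2, also below the filter, overlapped between the groups, and Ngp was above 0 only in KO replicate 2 (0.0432 FPKM). Of all genes tested, 55.8% did not overlap. Neutrophils express Fc gamma receptors, Fcer1g, Syk and Lyn too, and the part of any such RNA in the changes was not tested. Of the microglia and macrophage markers 10 of 15 reached a mean of 1 FPKM (Csf1r, Cd68 and Tyrobp among them). Of these 10, 6 were higher in the KO group at an adjusted p under 0.05 in the test below (24.5% of all genes were), such as Cd68 at 491.3 against 371.7 FPKM on average. By the same test 3 were lower (18.8% of all genes were), namely Cd14 (136.3 against 474.1 FPKM), Adgre1 (39.3 against 101.3 FPKM) and Cx3cr1 (1.14 against 2.74 FPKM). The summed level of the list was 1072.3 to 1110.2 FPKM in the KO group against 1275 to 1315.1 FPKM in the WT group, while Sall1 was listed at 0 and P2ry12, Tmem119 and Aif1 stayed below 1 FPKM. Lymphoid, mast and glial markers are given with the closing values. Cd177 itself, removed in the neutrophils and not in the microglia, was at most 0.477 FPKM and does not check the labels.

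Microglia cultured with KO neutrophils had less RNA of the inhibitory receptor, of the gamma chain, of both kinases and of Fcgr1. They had more RNA of Fcgr3, with a call that 6 of 15 other settings removed. Only RNA was read, and protein was not measured in these libraries. By limma on log2(FPKM + 1), with Benjamini-Hochberg adjustment over all genes tested, 6 of the 7 genes had an adjusted p under 0.05 (85.7%), against 43.3% of all 11395 genes, so that a call by itself was common in this comparison. Of the 6, 5 were lower with KO neutrophils (18.8% of all genes were) and 1 was higher (24.5% of all genes were). When each library was rescaled to a common sum (the TPM scale), the split over all genes turned from 2789 higher and 2141 lower to 2183 higher and 2659 lower, while that of the 7 genes stayed at 1 higher and 5 lower. Fcgr4 did not pass. The median log2 change of the 7 genes was -0.29, and that of all genes was 0.02. Values of the groups did not overlap for any of the 7 genes, which was also the case for 55.8% of all genes. None of the 7 changed by more than 2-fold, a size that 2.57% of all genes reached with an unadjusted p under 0.05. In bulk RNA a lower share of cells that express a gene and less RNA per cell cannot be told apart. For each of the 7 genes the exact two-sided permutation test on FPKM gave p = 0.1, the smallest that 3 libraries against 3 can give.

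**Figure D1:**
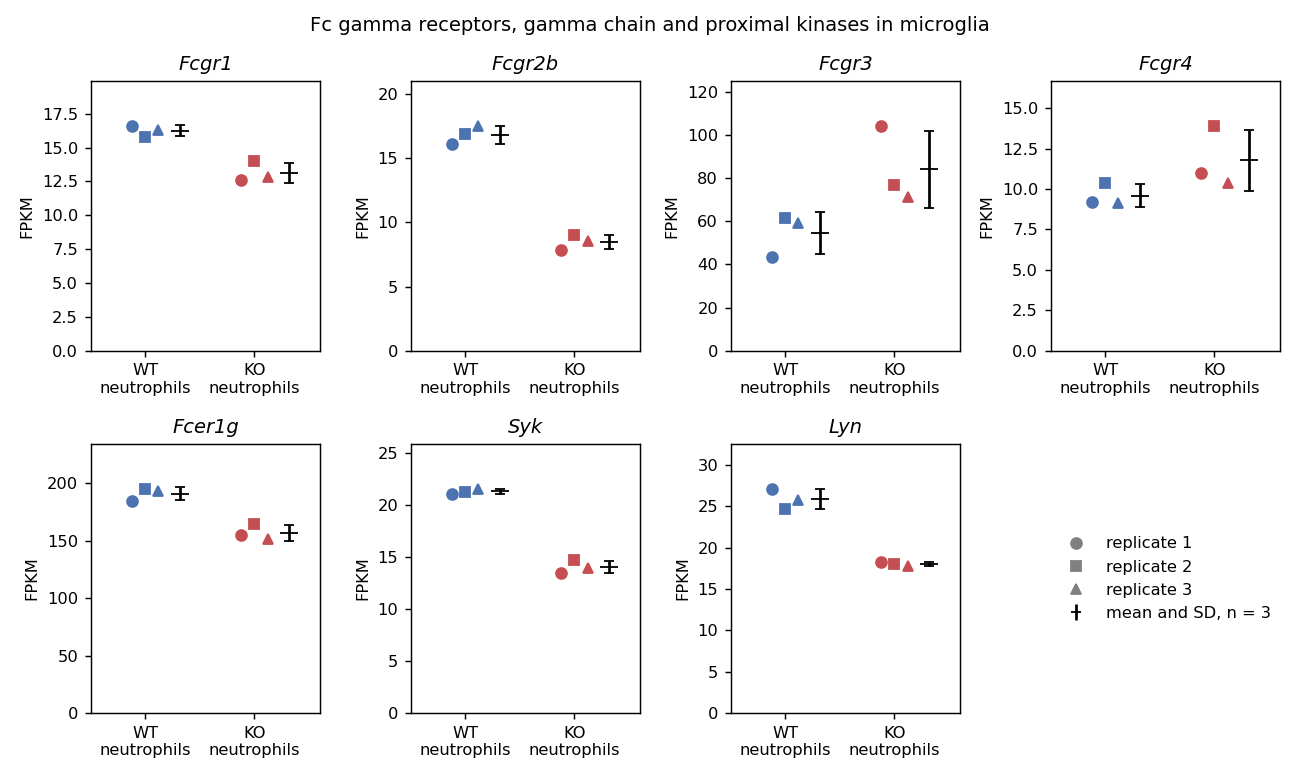
FPKM of the 4 receptors, the gamma chain Fcer1g and the kinases Syk and Lyn in each library (points, 3 per group), with the mean and SD beside them; each panel has its own axis from 0. Fcgr2b fell from 16.8 to 8.48 FPKM on average, while Fcgr3 was higher with KO neutrophils but widely spread within both groups.

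Fcgr2b, the inhibitory receptor (chr1:170958617-170976547, minus strand, GRCm38), showed the largest change of the 7 on the log2 scale. Its level was 16.1, 16.9 and 17.5 FPKM with WT neutrophils and 7.88, 9.0 and 8.56 FPKM with KO neutrophils. Every WT library lay well above every KO library, and the means of 16.8 ± 0.729 and 8.48 ± 0.561 FPKM (SD, n = 3 each) differed 1.99-fold. The log2 change was -0.91 (SE 0.056, 95% interval -1.05 to -0.78, limma adjusted p = 5.18e-05), and it was -0.98 to -0.87 under the 15 other settings. An antisense gene, Gm38204, overlaps Fcgr2b. It was listed at 0.273 to 0.482 FPKM in the WT group and at 0 to 0.128 FPKM in the KO group, and since it is not stated whether strand was used in counting, its reads and those of Fcgr2b cannot be told apart.

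Among the activating receptors, Fcgr1 (chr3:96282909-96293969, minus strand), the high-affinity receptor for IgG, was lower. It had 16.6, 15.8 and 16.3 FPKM with WT neutrophils and 12.6, 14.0 and 12.8 FPKM with KO neutrophils. The lowest WT value was above the highest KO value, and the means of 16.2 ± 0.441 and 13.1 ± 0.731 FPKM (SD, n = 3 each) differed 1.24-fold. The log2 change was -0.29 (SE 0.047, limma adjusted p = 0.00357).

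Fcgr3 (chr1:171051174-171064935, minus strand), a low-affinity activating receptor, was the most abundant of the 4 receptors in both groups. Its level was 43.6, 61.3 and 59.0 FPKM with WT neutrophils and 104.1, 76.8 and 71.0 FPKM with KO neutrophils. WT replicate 1 was low and KO replicate 1 high within their groups, and the groups did not overlap. The means were 54.6 ± 9.63 and 84.0 ± 17.7 FPKM (SD, n = 3 each), a 1.54-fold higher level, and the log2 difference was 0.61 (SE 0.181, 95% interval 0.17 to 1.04, limma adjusted p = 0.0359). This spread was wide for a gene of its level. The coefficient of variation was 17.6% and 21.0% in the 2 groups, above 96.3% and 97.6% of the 4789 genes that averaged 10 FPKM or more, whose medians were 3.37% and 3.23%. The call was lost in 6 of 15 other settings, with adjusted p up to 0.0939. It was lost without WT replicate 1 (log2 change 0.46, adjusted p = 0.0822), without WT replicate 3 (adjusted p = 0.0592), without KO replicate 1 (0.44, adjusted p = 0.0751) and without KO replicate 2 (adjusted p = 0.0643). When replicate 1 of both groups was left out, a setting chosen after the values were seen, the log2 change was 0.29 with an adjusted p of 0.0189. The sign was positive in every setting.

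Fcgr4 (chr1:171018920-171029761, plus strand), the activating receptor for mouse IgG2 subclasses, had the lowest level of the 4 receptors with WT neutrophils. It had 9.21, 10.4 and 9.12 FPKM with WT neutrophils and 11.0, 13.9 and 10.4 FPKM with KO neutrophils. The highest WT and the lowest KO library were equal to 3 digits, so the groups only just did not overlap. The log2 change was 0.27 (SE 0.107, 95% interval 0.01 to 0.53, limma adjusted p = 0.0905), so a change of up to 0.53 in the direction of Fcgr3 remains within the interval. With 1 library left out it was 0.15 to 0.34 and not called, the lowest without KO replicate 2. With a replicate block in the fit it was 0.27 and called (limma adjusted p = 0.0264), though the labels do not state that replicate numbers pair the libraries.

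Fcer1g, the gamma chain (chr1:171229572-171234365, minus strand), was the most abundant of the 7 genes, above 98.1% of all genes tested by its mean FPKM. It had 184.4, 195.2 and 193.3 FPKM with WT neutrophils and 154.9, 164.3 and 151.3 FPKM with KO neutrophils. All 3 KO libraries lay below all WT libraries, at 156.8 ± 6.71 against 191.0 ± 5.76 FPKM (SD, n = 3 each), a 1.22-fold lower level, and the log2 difference was -0.28 (SE 0.038, limma adjusted p = 0.00152). Tyrobp, the other ITAM adaptor of these cells, moved the other way, from 135.1 to 138.9 FPKM with WT to 178.5 to 207.3 FPKM with KO neutrophils (log2 change 0.48, limma adjusted p = 0.000724). The ratio of Fcer1g to Tyrobp was 1.4 ± 0.0617 with WT and 0.825 ± 0.0953 with KO neutrophils (SD, n = 3 each). Fcer1g was thus above Tyrobp in every WT library and below it in every KO library.

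Both kinases fell. Syk (chr13:52583173-52648792, plus strand), which binds the phosphorylated ITAM, had 21.1, 21.3 and 21.6 FPKM with WT neutrophils and 13.5, 14.7 and 14.0 FPKM with KO neutrophils. The gap between the groups was several times the spread within them, and the log2 change was -0.57 (SE 0.039, 95% interval -0.66 to -0.48, limma adjusted p = 8.04e-05). Lyn (chr4:3678115-3813122, plus strand), the Src family kinase that phosphorylates both kinds of motif, had 27.1, 24.7 and 25.7 FPKM with WT neutrophils and 18.3, 18.0 and 17.8 FPKM with KO neutrophils. The log2 change of Lyn was -0.49 (SE 0.039, 95% interval -0.59 to -0.4, limma adjusted p = 0.000162). Again no KO library reached the lowest WT library. For Fcgr1, Fcgr2b, Fcer1g, Syk and Lyn the call held in all 15 other settings.

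**Figure D2:**
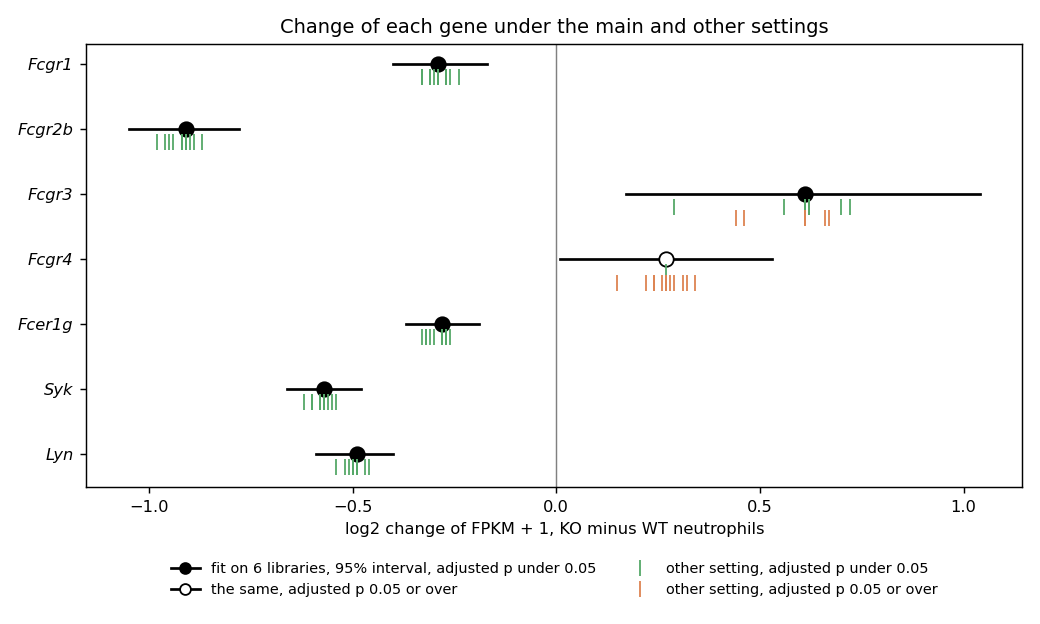
Log2 change of FPKM + 1 (KO minus WT neutrophils) of each gene, with its 95% interval from limma (circles, filled where the adjusted p was under 0.05) and the value under each of 15 other settings (ticks). Fcgr1, Fcgr2b, Fcer1g, Syk and Lyn stayed on the left and called in every setting, whereas Fcgr3 ranged from 0.29 to 0.72 and lost its call in 6.

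The order of the levels changed at its lower end. With WT neutrophils it was Fcer1g, Fcgr3, Lyn, Syk, Fcgr2b, Fcgr1 and Fcgr4, in which the ranges of Fcgr2b and Fcgr1 overlapped and those of the other neighbours did not. With KO neutrophils Fcgr2b came last, at 7.88 to 9.0 FPKM, below Fcgr4 at 10.4 to 13.9 FPKM. Here the ranges of Syk and Fcgr1 overlapped, as did those of Fcgr1 and Fcgr4. By FPKM, the RNA of the inhibitory receptor thus went from level with that of Fcgr1 to below that of every activating receptor.

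The levels can also be set against Fcgr2b within a library, which restates them and adds no support. Since Fcgr2b fell the most of the 7 genes, any gene that fell less has a higher ratio to it, Fcgr1 among them. The summed FPKM of Fcgr1, Fcgr3 and Fcgr4 over that of Fcgr2b was 4.32, 5.16 and 4.82 with WT and 16.2, 11.6 and 11.0 with KO neutrophils. All 3 KO libraries had a ratio more than 2 times that of any WT library, and the means of 4.77 ± 0.423 and 12.9 ± 2.84 (SD, n = 3 each) differed 2.72-fold. Most of the sum was Fcgr3, whose own ratio to Fcgr2b was 3.1-fold higher on average, at 10.01 ± 2.77 against 3.23 ± 0.468 (SD, n = 3 each). For Fcgr4 it was 0.57 ± 0.0472 and 1.39 ± 0.163, a 2.44-fold difference, and for Fcgr1 0.965 ± 0.0608 and 1.55 ± 0.0538, a 1.6-fold difference (SD, n = 3 each). Since these ratios share Fcgr2b they are not independent of one another. Reads that fit both Fcgr2b and Fcgr3 could be counted in the numerator or the denominator, and their part in the ratio was not tested. The summed FPKM of the 2 genes was 59.7, 78.2 and 76.6 FPKM in the WT group and 112.0, 85.8 and 79.6 FPKM in the KO group.

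The gamma chain fell while the receptors that pair with it had a summed level of 69.4, 87.4 and 84.4 FPKM in the WT group against 127.7, 104.6 and 94.3 FPKM in the KO group. Fcer1g over the summed FPKM of Fcgr1, Fcgr3 and Fcgr4 was 2.66, 2.23 and 2.29 with WT and 1.21, 1.57 and 1.6 with KO neutrophils. The groups did not overlap, and the gamma chain remained above the summed receptors in all 6 libraries.

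**Figure D3:**
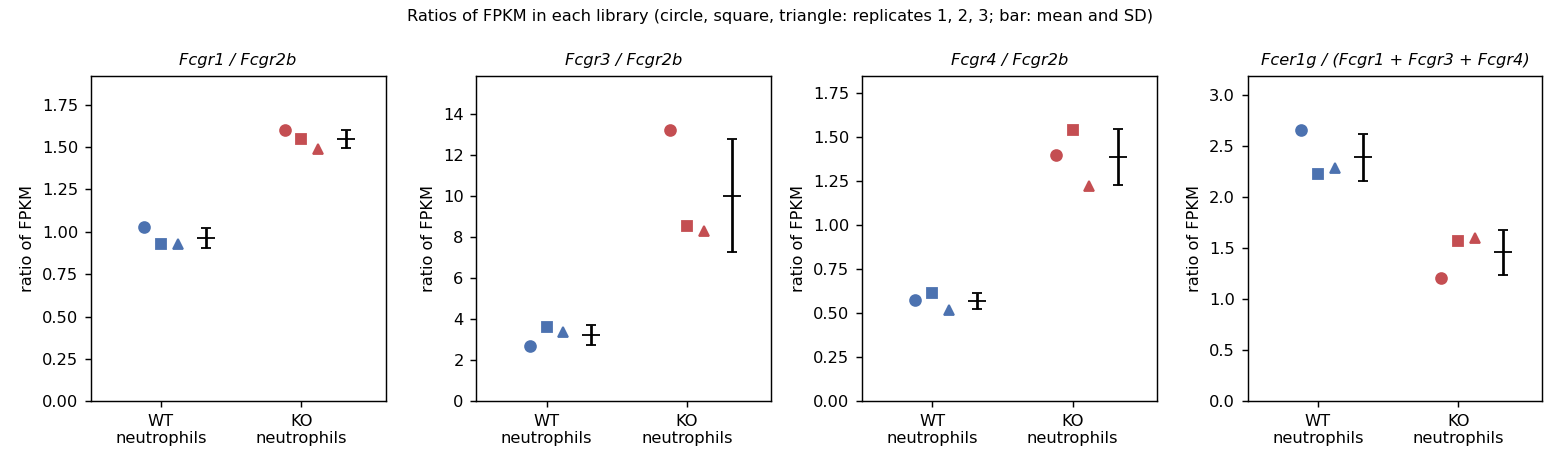
Ratio of FPKM of each activating receptor to the inhibitory receptor Fcgr2b, and of the gamma chain to the sum of the activating receptors, in each library with mean and SD (n = 3 per group); each axis starts at 0. Every activating receptor was higher relative to Fcgr2b in the KO group, from 0.965 to 1.55 for Fcgr1, 3.23 to 10.01 for Fcgr3 and 0.57 to 1.39 for Fcgr4. Fcgr2b fell the most, so the ratio also rose for Fcgr1, which itself fell.

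Promoters of the 4 receptors were searched for motifs of factors known to act on them. The sequences are the 250 bases before the RefSeq start (GRCm38.p6), 5′ to 3′ on the strand of the gene, with matches in capitals. They are shown because genes of the same family, 3 of them side by side on chromosome 1, changed in different directions. The motifs were the interferon gamma-activated site (GAS, TTCNNNGAA), the core of the interferon-stimulated response element (ISRE, GAAANNGAA), the PU.1 core GAGGAA and the NF-kB site, each searched on both strands. They occurred in 7.02% (GAS), 7.13% (ISRE core), 23.3% (PU.1) and 7.25% (NF-kB) of 32851 promoter windows of the same length.
Fcgr1, chr3:96293970-96294219, minus strand: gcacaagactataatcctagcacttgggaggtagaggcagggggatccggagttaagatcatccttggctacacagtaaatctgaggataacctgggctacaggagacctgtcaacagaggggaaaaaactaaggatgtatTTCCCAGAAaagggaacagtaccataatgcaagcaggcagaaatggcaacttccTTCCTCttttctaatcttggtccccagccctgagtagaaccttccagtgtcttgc
Fcgr2b, chr1:170976072-170976321, minus strand: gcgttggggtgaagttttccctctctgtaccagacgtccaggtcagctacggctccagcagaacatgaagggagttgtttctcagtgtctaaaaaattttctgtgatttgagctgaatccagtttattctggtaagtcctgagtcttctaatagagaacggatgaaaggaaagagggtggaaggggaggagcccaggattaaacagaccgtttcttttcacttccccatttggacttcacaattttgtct
Fcgr3, chr1:171059404-171059653, minus strand: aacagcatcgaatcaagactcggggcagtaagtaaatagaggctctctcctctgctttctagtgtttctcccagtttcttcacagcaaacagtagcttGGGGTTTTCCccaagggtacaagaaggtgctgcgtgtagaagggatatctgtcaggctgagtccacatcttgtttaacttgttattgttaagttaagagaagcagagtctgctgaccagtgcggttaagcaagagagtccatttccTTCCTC
Fcgr4, chr1:171018676-171018925, plus strand: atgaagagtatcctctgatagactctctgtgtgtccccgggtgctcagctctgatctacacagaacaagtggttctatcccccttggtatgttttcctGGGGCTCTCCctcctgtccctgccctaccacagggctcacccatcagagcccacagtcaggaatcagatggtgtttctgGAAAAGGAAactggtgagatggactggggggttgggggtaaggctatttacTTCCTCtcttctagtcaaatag

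Fcgr1 held a GAS match 109 bases before the start and a PU.1 match at 55. Fcgr4 held an ISRE core match at 73, a PU.1 match at 22 and an NF-kB match at 152 bases before the start. Fcgr3 held a PU.1 match at 6 and an NF-kB match at 152 bases. For a second RefSeq start of Fcgr3, whose window overlaps the one shown, the same matches lay at 15 and 161 bases. Of the other genes, Syk held a PU.1 match 9 bases before the second of its 2 starts. No match was found in the windows of Fcgr2b and Fcer1g. These are matches of letters and not sites known to be bound in these cells. Of 17 genes listed as regulators of Fc gamma receptor genes, 16 were tested and 10 called (62.5%, against 43.3% of all genes), 7 lower and 3 higher with KO neutrophils (median log2 change -0.14, against 0.02 over all genes). Among those that fell were Jak2 (log2 change -0.94), a kinase of the interferon gamma receptor, and Il4ra (-0.71), a chain of the interleukin-4 receptor. Those that rose were Tgfbr2 (0.53) and Tgfbr1 (0.34), the receptors of TGF-beta, and Spi1, which encodes PU.1 (0.29). Spi1 had 34.5 to 36.5 FPKM in the WT group and 41.0 to 46.1 FPKM in the KO group.

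Next, the rest of the pathway was counted from 8 lists. Of their 145 genes 111 were tested and 79 called (71.2%, against 43.3% of all genes), 37 higher and 42 lower, with a median log2 change of -0.03. The lists were written with results of these data known, so the share is a description.

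Kinases close to Syk and Lyn, and the genes that set their activity, moved in both directions. Of 8 tested 4 were lower and 2 higher (75.0% called, against 43.3% of all genes). Src (log2 change -0.83), a Src family kinase like Lyn, fell, as did the phosphatase Ptprj (-0.65). Csk, the kinase that holds Src family kinases inactive, rose from 18.8 to 19.7 FPKM with WT to 25.7 to 26.4 FPKM with KO neutrophils (log2 change 0.42, limma adjusted p = 0.000105), and Pag1, the membrane anchor of Csk, rose by a log2 change of 0.22. Fyn (0.11, adjusted p = 0.203) and Ptprc (0.14, adjusted p = 0.303) did not pass. The median of the 8 was -0.14, and it was 0.12 when only genes averaging 5 FPKM or more entered.

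Other receptors and adaptors that use an ITAM split in both directions. Of 11 tested 4 were higher and 5 lower (81.8% called, against 43.3% of all genes). Cd300lb (log2 change 1.52), Trem2 (1.15), a receptor for lipids and apolipoproteins, and Clec7a (1.14), the beta-glucan receptor dectin-1, had the largest rises. Clec4d (-0.91), Trem3 (-0.78) and Clec4e (-0.71), the last a receptor for mycobacterial glycolipid that pairs with Fcer1g, had the largest falls, and 5 other settings removed the call of Trem3. The median was -0.21, and 0.14 among genes averaging 5 FPKM or more, so no direction is given for the list.

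Genes downstream of Syk moved in both directions. Lcp2, which encodes the adaptor SLP-76, had 74.6 to 78.1 FPKM in the WT group and 33.1 to 34.2 FPKM in the KO group (log2 change -1.16, SE 0.028, limma adjusted p = 1.1e-06). The adaptor Blnk (-0.98) and Vav1 (-0.91), an exchange factor for Rac, fell by similar amounts. Tec (0.59), a kinase that acts with phospholipase C gamma, and the adaptors Shc1 (0.54) and Lat2 (0.52) rose. In all, 11 of 27 were lower, 9 higher and 7 not called, with a median log2 change of -0.03. The share called was 74.1%, against 43.3% of all genes. Grb2 did not pass (0.27, adjusted p = 0.438).

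The actin machinery that closes the phagocytic cup had more genes higher than lower, 12 against 6 of 23 (9 against 6 on the TPM scale), with a median of 0.1. Of the 23, 78.3% were called, against 43.3% of all genes. Over all genes 56.6% of calls were also higher (45.1% on the TPM scale). Gsn, which encodes the actin-severing protein gelsolin (0.76), Cfl1, which encodes cofilin (0.38), and Arpc3, a subunit of the Arp2/3 complex (0.37), rose most. The largest falls were in Marcks (-1.08), Rac2 (-1.01) and Rhog (-0.47). Rac2, the Rac GTPase of blood cells, had 102.8, 106.4 and 106.9 FPKM in the WT group and 51.5, 52.8 and 51.5 FPKM in the KO group.

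Genes on the inhibitory side did not move as one. Of the phosphatases, adaptors and ubiquitin ligases that limit the signal, 11 were tested, 3 lower and 2 higher (45.5% called, close to the 43.3% of all genes). Inpp5d, which encodes the phosphatase that the ITIM of Fcgr2b recruits, was higher, at 9.49 to 9.67 FPKM with KO against 6.73 to 7.43 FPKM with WT neutrophils (log2 change 0.4, limma adjusted p = 0.000715). Dok3 (0.44) also rose, while Ptpn6, which encodes SHP-1 (-0.3), Cbl (-0.25) and Ptpn11, which encodes SHP-2 (-0.19), fell. Of other inhibitory receptors of myeloid cells, most of them with an ITIM, 12 were tested, 6 lower and 3 higher (7 and 2 on the TPM scale), with a median of -0.44. The share called was 75.0%, against 43.3% of all genes. Pilra (-1.98), Cd72 (-1.52) and Lilrb4a (-1.33) fell further on the log2 scale than Fcgr2b did, and Cd300a (1.16), Cd200r1 (0.61), which signals through Dok adaptors and has no ITIM, and Ceacam1 (0.21) rose, the last with a call that 10 other settings removed.

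Other receptors for antibodies were few. Of 14 listed genes 3 reached a mean of 1 FPKM and 2 were called (66.7% of the 3, against 43.3% of all genes). Fcrl1, an Fc receptor-like gene best known from B cells, had 2.73 to 3.17 FPKM in the WT group and 3.84 to 4.81 FPKM in the KO group (log2 change 0.45). Fcgrt, the neonatal Fc receptor that recycles IgG, had 4.33 to 4.59 and 4.79 to 5.7 FPKM (log2 change 0.21, limma adjusted p = 0.0448, a call that 7 other settings removed). Trim21, the cytosolic antibody receptor, did not pass (-0.2, adjusted p = 0.112). The IgE receptor genes Fcer1a and Ms4a2 were listed at 0 in all libraries.

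**Figure D4:**
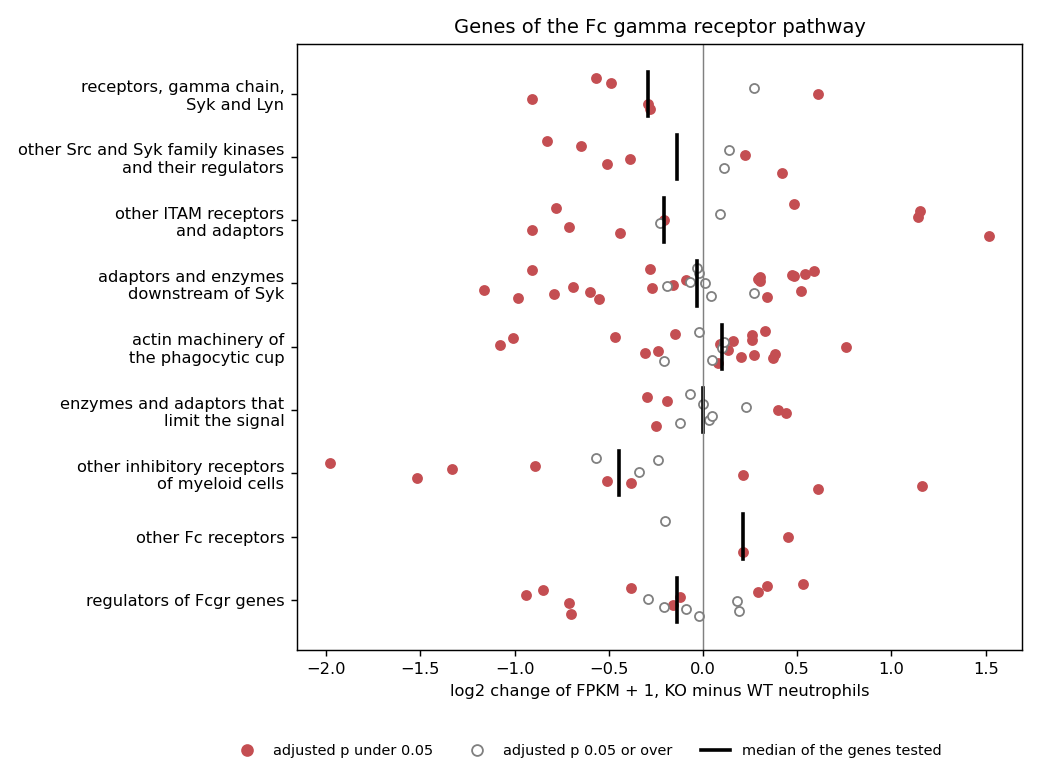
Log2 change of FPKM + 1 (KO minus WT neutrophils) of every tested gene of the pathway by list (points, red where the adjusted p was under 0.05), with the median of each list as a bar. Genes called lower and genes called higher occurred in all lists except the other Fc receptors, where both calls were higher, and the list medians ran from -0.44 to 0.21.

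Fcgr2b, Fcgr3, Fcgr4 and Fcer1g lie within 275.7 kb on chromosome 1 (170958617 to 171234365), with 7 other protein-coding genes between them. Of those neighbours 2 were tested and both were higher, Sdhc, a subunit of succinate dehydrogenase, at 24.8 to 25.5 against 35.6 to 38.3 FPKM (log2 change 0.54) and Tomm40l, related to a mitochondrial import pore, at 5.14 to 5.41 against 6.35 to 6.57 FPKM (log2 change 0.24). Fcgr2b and Fcer1g at the ends of this stretch fell, so genes of the stretch did not move in 1 direction.

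The tested genes nearest to each receptor in profile were found by the distance between centred log2(FPKM + 1) values over the 6 libraries, as a description. For Fcgr2b they were Micall2, Plk3 and Cd83, a surface protein of activated antigen-presenting cells, at distances of 0.1 to 0.112 and with log2 changes of -0.86, -0.85 and -0.91. For Fcgr1 they were Nudt18, Mnat1 and Ubap1, at 0.028 to 0.044. For Fcgr4 they were Hscb, Ube2a and Tbc1d19, at 0.111 to 0.121. Fcgr3 had no neighbour as close, and its nearest were Mrps36-ps2, Pif1 and Tec, at 0.266 to 0.297.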

How the data were processed

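RNA-seq of sorted microglia was analysed in 6 libraries, 3 per neutrophil genotype, grouped by their titles. The authors deposited FPKM values per Ensembl gene, 1 column per library with no pooling, and the submitters' processing notes name fastp 0.17.1, HISAT2 2.1.0, DESeq2 1.18.1 and R 3.4.3. Genome build, annotation, strand and the counting program are not given in the sources used here. The labels and the methods name different library kits and sequencers, so neither is stated as settled. Symbols and positions came from GENCODE M21 (GRCm38), in which 99.67% of identifiers were found, and promoters from RefSeq (GRCm38.p6). Lyn had no promoter window.

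The main test was limma 3.58.1 (R 4.3.3; lmFit, eBayes with trend) on log2(FPKM + 1), for the KO against the WT group with no covariate. Genes averaging 1 FPKM or more entered, and Benjamini-Hochberg adjustment ran over all 11395. An adjusted p under 0.05 was a call. The change on this scale understates that of low genes. The pipeline was tested on simulated data. Of the low FPKM values 25.9% to 27.0% came out as whole fragments (within 0.05 of a whole number), against 10% by chance, so counts were not recovered and no count test was run. Counting errors cover counting only.

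The genes and lists were chosen with earlier results of these data known. Named from each list were the 3 called genes with the largest rise and the 3 with the largest fall, besides single genes that were not called, Tyrobp, the cell markers, Yes1, Gm38204, Gm11787, Gm4117 and the antibody genes of the closing section, chosen after their values were seen. Some genes that this rule names are not reported here. Alternatives were a pseudocount of 0.1, no filter, a filter at 5 FPKM, quantile normalization, median centring, the TPM scale, a fit without the variance trend, a replicate block, each library left out in turn and, added after the values were seen, replicate 1 of both groups left out.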

Additional observations from a re-analysis of the deposited data

How the results depend on the processing

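None of the 7 genes changed sign in any of the 15 alternatives. Leaving out 1 library gave log2 changes of 0.44 to 0.72 for Fcgr3, with 4 single libraries (WT replicates 1 and 3, KO replicates 1 and 2) each removing the call, and leaving out replicate 1 of both groups gave 0.29. Fcgr3 was also not called without the filter on low values (0.61, limma adjusted p = 0.0939) or with a replicate block (0.61, adjusted p = 0.0926), and with the block Fcgr4 was called (0.27, adjusted p = 0.0264). The block gave 4212 calls over all genes against 4930 without it. The labels do not say whether same-numbered libraries were handled together. Deviations of same-numbered libraries from their group means correlated at -0.0751, -0.0524 and -0.00518, which with 3 libraries per group cannot settle it. The number of the 7 genes called was 5 or 6 throughout. The log2 of the KO over WT ratio of activating receptors to Fcgr2b was 1.25 to 1.55 with 1 library left out. With all 6 libraries and Fcgr1 as the only activating receptor it was 0.68.

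Calls among the other Fc receptors were 1 on the TPM scale and 1 to 2 with 1 library left out, and no gene of that list was left at a mean of at least 5 FPKM, where the Src and Syk family list kept 2 calls. Medians of lists that moved were as follows. Without the filter they were -0.02 for the other Fc receptors, -0.01 for the ITAM list and -0.38 for the inhibitory receptor list. At a mean of at least 5 FPKM they were 0.12 for the Src and Syk family, 0.14 for the ITAM list and -0.51 for the inhibitory receptor list. With a pseudocount of 0.1 they were -0.2 and -0.52 for the Src and Syk family and the inhibitory receptor list. On the TPM scale they were -0.25 (ITAM), -0.08 (downstream of Syk), 0.05 (phagocytic cup), -0.04 (inhibitory enzymes) and -0.19 (regulators). With 1 library left out they ran from 0.18 to 0.28 (other Fc receptors), -0.21 to -0.11 (Src and Syk family), -0.22 to -0.17 (ITAM), -0.06 to -0.02 (downstream of Syk), -0.05 to 0.01 (inhibitory enzymes), -0.49 to -0.32 (inhibitory receptors) and -0.2 to -0.1 (regulators). Without replicate 1 of both groups they were -0.24 (Src and Syk family), -0.17 (ITAM) and -0.08 (inhibitory enzymes), and 1 of the other Fc receptors was called. The cause of these moves was not tested, except that another filter changes which genes enter. Of 56 other named genes, 7 (Cbl, Ceacam1, Fcgrt, Fcrl1, Nudt18, Pag1 and Trem3) lost a call in at least 1 alternative and none changed sign. Count tests were not run because whole reads were not recovered.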

Other observations

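Ligands of the receptors were looked at after their values were seen. The IgG heavy chain genes Ighg1, Ighg2b, Ighg2c and Ighg3 and the light chain genes Igkc, Iglc1 and Iglc2 were listed at 0 in all 6 libraries, as were the pentraxin genes Crp, Apcs and Ptx3, whose products also bind Fc gamma receptors. Ighm, the heavy chain of IgM, was read in every library, at 2.52, 2.42 and 2.36 FPKM in the WT group and 10.8, 10.7 and 8.44 FPKM in the KO group (log2 change 1.67, limma adjusted p = 3.59e-05). The groups did not overlap.

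Of the 7 B cell markers Ighm was the only one with a mean of 1 FPKM. Ms4a1, Pax5 and Blk were listed at 0 in all libraries, and Cd79a and Cd79b were at most 0.109 FPKM. The summed level of the list was 2.38 to 2.52 FPKM in the WT group and 8.55 to 10.9 FPKM in the KO group. Of 10 NK, mast and T cell markers 9 were listed at 0 in all libraries, with a summed level of at most 0.0551 FPKM. The summed level of 12 astrocyte and oligodendrocyte markers was 0.312 to 0.4 FPKM in the WT group and 0.284 to 0.366 FPKM in the KO group.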
